A study of Mus musculus with 18 samples.

Results

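The antibody genes described here were 6 heavy-chain constant genes (Igha, Ighg1, Ighg2b, Ighg2c, Ighg3 and Ighd), the 3 lambda light-chain constant genes (Iglc1, Iglc2 and Iglc3) and Jchain, the joining chain of secreted antibodies. They were chosen by name, and 9 of the 10 were present among the 17757 genes of the short-read table. Ighg1 was not among its genes and was counted only in the long reads. The genes were read in 8436 single cells, and in most detail in the 124 cells that held at least 1000 UMIs (unique molecular identifiers, each marking 1 captured RNA molecule) of Igkc, the kappa light-chain constant gene. In each of those cells the dominant isotype was the heavy-chain constant gene with the most UMIs, Ighm included. The cells were Lin- cKit+ bone marrow cells, a sorted fraction rich in stem and progenitor cells, from female C57BL/6 mice. Mice 1, 3 and 5 were young, at 8 weeks, and mice 2, 4 and 6 were aged, at 72 weeks, with no transgene or treatment named in either group. Each mouse gave 1 droplet library of 3′ short reads and 2 runs of PacBio long reads.

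An antibody is built from 2 identical heavy chains and 2 identical light chains, and the constant gene joined to the heavy chain's variable region sets its class. A B cell starts with Ighm and Ighd, for IgM and IgD, and may switch by deleting DNA to Ighg3, Ighg1, Ighg2b, Ighg2c or Igha, for the IgG subclasses and IgA. Its light chain is kappa (Igkc) in most mouse B cells and lambda in the others, and a mature cell normally uses only 1 productive heavy chain and 1 light chain. Plasma cells, the end stage of the lineage, secrete the antibody and reside in bone marrow. The small protein encoded by Jchain is linked by disulphide bonds to the secreted tails of IgM and IgA and holds their units together, and IgG molecules lack that tail.

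The ends of the secreted heavy chains are shown because the dominant isotypes found were Ighm, Igha and Ighg2b, and because their Jchain levels are compared later. The runs are the last 72 coding bases of the secreted form before the stop codon, 5′ to 3′, from the Gencode vM21 annotation of GRCm38, all on the minus strand. The capitals mark the penultimate codon, which is TGC, for cysteine, in Ighm-201 and Igha-201 and GGT, for glycine, in Ighg2b-201. The heavy genes lie on chromosome 12 in the order of the switch, from Ighm (chr12:113418558-113422730) and Ighd (chr12:113406604-113416324) through Ighg3, Ighg1, Ighg2b (chr12:113302965-113307933) and Ighg2c to Igha (chr12:113254830-113260236), with Jchain at chr5:88519809-88527891. The stretches lie at chr12:113420870-113420941 for Ighm, chr12:113258771-113258842 for Igha and chr12:113306392-113306463 for Ighg2b. The exons of the membrane-bound form lie downstream of these stretches.
Ighm: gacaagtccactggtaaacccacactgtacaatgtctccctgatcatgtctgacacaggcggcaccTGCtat
Igha: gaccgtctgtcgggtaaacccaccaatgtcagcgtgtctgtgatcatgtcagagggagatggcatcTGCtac
Ighg2b: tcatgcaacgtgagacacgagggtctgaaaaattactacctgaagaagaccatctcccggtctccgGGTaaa

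The lambda constants are shown because their likeness bears on how far their counts can be told apart. The runs are the last 120 coding bases of each gene, minus strand, at chr16:19061755-19061874 for Iglc1, chr16:19198539-19198658 for Iglc2 and chr16:19065368-19065487 for Iglc3. The capitals mark the 39 positions at which the 3 genes are not all the same.
Iglc1: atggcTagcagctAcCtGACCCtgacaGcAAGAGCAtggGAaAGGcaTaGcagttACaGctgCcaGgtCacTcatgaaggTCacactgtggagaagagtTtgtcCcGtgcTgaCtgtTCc
Iglc2: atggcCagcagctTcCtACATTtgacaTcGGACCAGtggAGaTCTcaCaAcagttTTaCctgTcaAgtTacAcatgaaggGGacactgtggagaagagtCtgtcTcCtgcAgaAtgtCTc
Iglc3: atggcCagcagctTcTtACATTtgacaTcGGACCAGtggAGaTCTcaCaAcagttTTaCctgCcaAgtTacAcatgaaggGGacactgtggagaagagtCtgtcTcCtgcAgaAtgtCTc
Iglc2 and Iglc3 differed at 2 bases of this stretch and at 11 of 314 coding bases (96.5% identity). The division of reads between them is therefore uncertain and was not tested. Bases past the stop codon, which 3′ reads can also cover, were not compared. Iglc1 differed from either at 38 of the 120 bases.

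The short-read libraries held 681 to 1919 cells and 3628043 to 17585424 UMIs per mouse, with a median of 4172 to 8498 UMIs per cell. Across the libraries 42 cell barcodes occurred in 2 libraries each, and 1 of the 124 Igkc-rich cells carried such a barcode, where the cell of the other library had 0 Igkc UMIs. The 6 Sequel runs each resembled the short reads of their own mouse best. Only 2 of the 6 Sequel II runs did so, those of mice 1 and 2, so the long reads are given last and with the Sequel runs on their own. Marker genes of macrophages and dendritic cells were highest in mice 1 and 2, summing to 23.8 and 58.1 UMIs per 1000000 (CPM) against 0.827 to 1.66 in the other 4. Summed over all mice each of these 10 genes was above 0, and their part in the results was not tested.

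Jchain had the most UMIs of the 9 genes over all mice and was highest in mouse 2, although Igha exceeded it in mouse 1 and Iglc1 in mouse 5. Its UMIs summed over all cells of a mouse were 5313, 21 and 68 in young mice 1, 3 and 5 and 32307, 9076 and 190 in aged mice 2, 4 and 6, or 442, 2.48 and 9.40 CPM against 2687, 516 and 52.4 CPM. The groups overlapped, because young mouse 1 stood above aged mouse 6. In these sums, fewer cells of a type and less RNA per cell cannot be told apart.

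Igha, the IgA heavy chain, was the most abundant switched isotype. It gave 5529, 11 and 46 UMIs in the young mice and 17301, 5975 and 3 in the aged mice (460, 1.30 and 6.36 CPM against 1439, 340 and 0.827 CPM). The groups overlapped, because young mouse 1 stood above aged mice 4 and 6. Mouse 6 had the smallest library, and its 3 UMIs are too few to rank it against young mouse 3. Ighg2b was almost confined to mouse 2, with 6726 UMIs there, 24 in mouse 1, 5 in mouse 4 and 0 in mice 3, 5 and 6. In the short reads Ighg2c and Ighg3 were seen in mouse 2 alone, with 46 and 8 UMIs. Ighd, the IgD chain of naive B cells, gave 5, 2 and 4 UMIs in the young mice and 2, 3 and 0 in the aged mice.

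Iglc1 gave 72, 2 and 269 UMIs in young mice 1, 3 and 5 and 6226, 515 and 0 in aged mice 2, 4 and 6. Iglc2 gave 326, 2 and 7 against 2455, 795 and 7. Iglc3 gave 101, 1 and 0 against 803, 513 and 1. Mouse 5 was the only mouse besides mouse 2 in which Iglc1 was the most counted of the 3, and mouse 6 had no Iglc1 UMI among its 3628043.

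**Figure D1:**
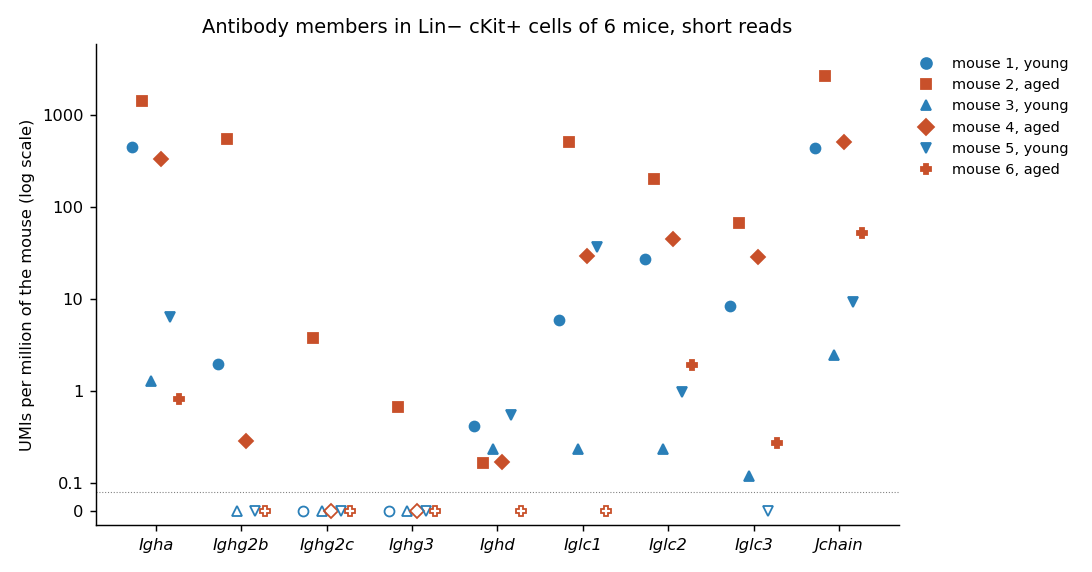
UMIs of each gene summed over all cells of a mouse, as CPM on a log axis, with 1 symbol per mouse, young mice in blue, aged mice in orange and open symbols below the dotted line at 0. Mouse 2 is highest for Jchain (2687 CPM), Igha (1439 CPM) and Ighg2b (559 CPM), and the age groups overlap.

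The question of age was asked of these sums with edgeR's quasi-likelihood test over all genes, aged against young, 3 mice each. Of the 9 genes, 5 passed the filter on low counts and were tested, and 0 of them were called at an adjusted p under 0.05. The background over all 12302 genes tested was 0 called (0%), or 12 with DESeq2 (0.0975%), and before adjustment 371 of them had p under 0.05. The log2 differences, aged minus young, were 2.82 for Jchain (SE 1.82), 1.91 for Igha (SE 2.04), 3.72 for Iglc1 (SE 1.82), 3.06 for Iglc2 (SE 1.49) and 3.34 for Iglc3 (SE 1.35), each with a Benjamini-Hochberg adjusted p of 1.00 in edgeR. Igkc and Ighm, the chains they are read against, differed by 3.15 and 3.11. The differences were positive and from about equal to their SE, for Igha, to over 2 SEs, for Iglc3. They rested on mice 1 and 2. Without mouse 2 they were 0.94 for Jchain, 0.18 for Igha, 0.31 for Iglc1, 1.37 for Iglc2 and 2.37 for Iglc3, and without mouse 1 they were 7.49, 7.27, 3.31, 7.11 and 8.71.

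Genes of the plasma cell and B-cell lineage were read beside them from lists drawn up with earlier results of these data known. Of 19 plasma cell genes, 16 were tested, 0 were called, 13 had a positive difference and the median was 0.77 on the log2 scale, against 0.0031 over all genes. Of 16 mature B-cell genes 7 were tested, with 0 called and a median of 1.32, and of 9 B-cell precursor genes 3 were tested, with 0 called and a median of 0.19. Without mouse 2 the medians were 0.021 for the plasma cell list, with 8 of 15 tested genes positive, -0.35 for the mature B-cell list, with 2 of 6 positive, and 0.061 for the precursor list. The summed level of the mature B-cell genes was 82.8 to 635 CPM in young mice and 137 to 1519 CPM in aged mice, and it was highest in mice 1 and 2. That list holds Cd74 and H2-Aa, antigen presentation genes that macrophages and dendritic cells also express.

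The 124 Igkc-rich cells were unevenly spread over the mice. Mouse 2 held 90 of them, mouse 4 held 20, mouse 1 held 13, mouse 6 held 1, and mice 3 and 5 held none. As a share of cells this was 0.784% in mouse 1 (95% Clopper-Pearson interval 0.418 to 1.34), 5.33% in mouse 2 (4.31 to 6.51), 1.04% in mouse 4 (0.638 to 1.61) and 0.147% in mouse 6 (0.0037 to 0.815). In mouse 3 a count of 0 allows up to 0.196%, and in mouse 5 up to 0.314%, taken as 3 cells of the total, and the Clopper-Pearson upper bounds are 0.240% and 0.385%. These intervals and limits cover counting error only. The mean share was 0.261% ± 0.452 in young and 2.174% ± 2.771 in aged mice (SD, n = 3 each), a difference of 1.91 percentage points with p = 0.2 in a two-sided exact permutation test, whose smallest possible p was 0.1. Mouse 1 lay above mouse 6, so the groups overlapped.

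The threshold fell in a wide gap. The cells just inside held 1156, 1391 and 1692 Igkc UMIs, and the cells just outside held 189, 80 and 52. The cell with 189 Igkc UMIs, from mouse 2, also held 40 Igha, 3 Ighm and 5 Jchain UMIs. The cell with 80, from mouse 4, held 31 Ighm and 13 Jchain UMIs. Within the 124 cells Igkc ran from 1156 to 10918 UMIs with a median of 4192, a median of 47.3% of all UMIs of the cell.

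Plasma cell markers were present in these cells. Xbp1, the secretory transcription factor, had a UMI in 99.2% of them against 40.0% of other cells. Mzb1, an endoplasmic reticulum cochaperone of antibody assembly, was seen in 123 of 124 against 0.914% of other cells. Sdc1, the surface marker CD138, was seen in 83.1% against 2.67%. B-cell genes were mixed. Of 13 mature B-cell genes counted, 11 were detected in the 124 cells, and Cd22 and Cr2 were at 0. Among the 11, Cd79a was seen in 86.3% against 0.192% of other cells and Fcrla in 58.9% against 0.217%. Blnk was seen in 44.4% against 0.710% and Ms4a1 in 22.6% against 0.036%. Cd74 was seen in 100% against 8.17% and Cd79b in 88.7% against 22.4%. H2-Aa and H2-Ab1 were seen in 14.5% and 61.3% against 7.48% and 32.9%. The CPM of H2-Aa and H2-Ab1 was lower than in other cells, at 22.4 and 114 against 76.6 and 136. Of 7 precursor genes 3 were detected, and Vpreb1, Igll1, Rag2 and Il7r were at 0. Ly6d was seen in 71.8% against 0.590% of other cells and Vpreb3 in 18.5% against 0.132%. Dntt was rarer than in other cells, at 5.65% against 7.68%. Kit, the receptor used in the sort, had a UMI in 13 of them (10.48%) against 26.3% of the other cells, at median depths of 9201 and 6313.5 UMIs.

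Clustering without the named antibody genes placed 115 of the 124 cells in a cluster of their own, called plasma cell-like here. It had 9 plasma cell markers among its 30 leading genes. Gm30211 was not left out and was also a leading gene. The long-read annotation gives it transcripts that overlap Igkc on the same strand, so the cluster was not fully independent of the Igkc signal. The other 9 cells lay in other clusters, 8 from mouse 2 and 1 from mouse 4. They had a median of 14403 UMIs against 9146 and a median Igkc share of 19.2% against 47.9%, and 7 of the 9 were among the 104 cells with the highest doublet scores, against 0 of the 115. Both sets had a median of 13 of 18 plasma cell markers with a UMI, against 3 in other cells.

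Ighm was the dominant heavy chain in 104 of the 124 cells, Igha in 16 and Ighg2b in 4, and Ighd, Ighg2c and Ighg3 in none. Mouse 1 had 10 Ighm and 3 Igha cells, mouse 2 had 77 Ighm, 9 Igha and 4 Ighg2b cells, mouse 4 had 16 Ighm and 4 Igha cells, and the cell of mouse 6 was an Ighm cell. Most Igkc-rich cells thus carried the unswitched isotype in every mouse that had them. Igha cells made up 23.1% of the Igkc-rich cells in mouse 1 (5.04 to 53.8), 10% in mouse 2 (4.68 to 18.1) and 20% in mouse 4 (5.73 to 43.7), and these exact 95% intervals overlapped. Ighg2b cells were 4.44% of those in mouse 2 (1.22 to 10.99). At 0 cells, the exact upper bound was 24.7% in mouse 1 and 16.8% in mouse 4. The absence of Ighg2b cells there was therefore not distinguishable from the share in mouse 2 at these cell numbers. These intervals and bounds cover counting error only, since cells of a mouse are not replicates and may share a clone.

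Heavy-chain UMIs in a cell came almost wholly from 1 gene. The cells held 246 to 3853 heavy-chain UMIs, with a median of 1366, and the dominant gene took a median of 99.9% of them. It took at least 99% in 118 cells and at least 90% in 122. The 3′ UMI counts 1 tag per captured molecule, so these shares do not depend on gene length.

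**Figure D2:**
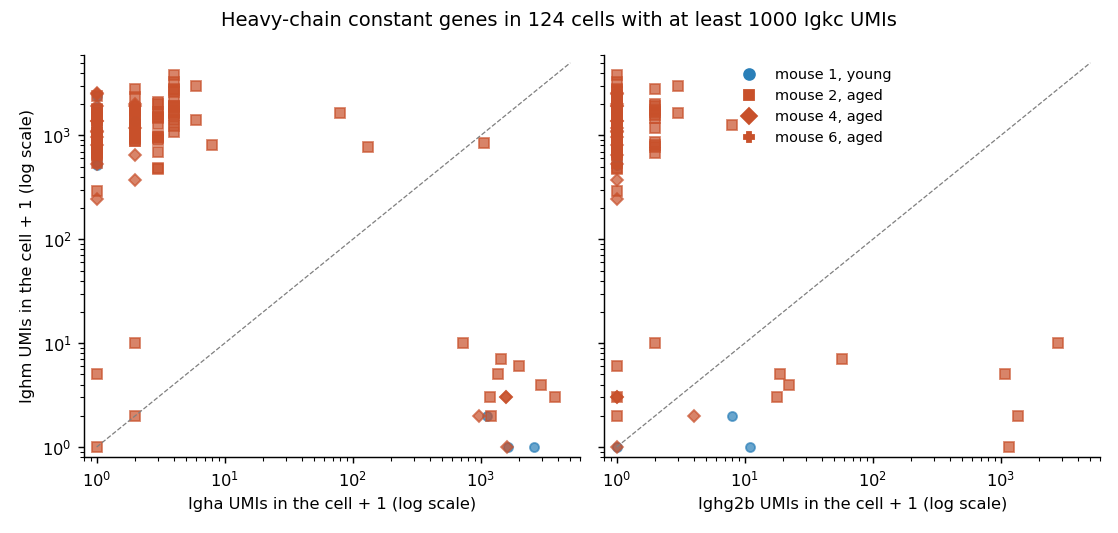
Ighm UMIs plotted over Igha UMIs (left) and Ighg2b UMIs (right) in each of the 124 Igkc-rich cells, each plus 1 on log axes, with 1 symbol per mouse, young in blue and aged in orange, and a dashed line at equal counts. Most cells are high for only 1 gene, and a cell of mouse 2 with 1061 Igha and 845 Ighm UMIs lies near the line.

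The exceptions were 2 cells of mouse 2. The first held 1061 Igha and 845 Ighm UMIs, with Igha at 55.7%, and with 585 Jchain and 5529 Igkc UMIs among 12602 in all. The second held 779 Ighm and 131 Igha UMIs, with Ighm at 85.2%, and 223 Jchain UMIs. Both lay in the plasma cell-like cluster and neither was among the cells with the highest doublet scores. A small count of the other chain was common, since 59 of the 104 Ighm cells had an Igha UMI, with a median of 2, and 13 of the 16 Igha cells had an Ighm UMI, with a median of 2. Only 2 of those Ighm cells had 10 or more Igha UMIs, and 1 of the Igha cells had 10 or more Ighm UMIs.

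Ighg2b was also found at a low level within Igha cells. The Igha cells with the most Ighg2b held 57, 21, 18 and 17 UMIs, all in mouse 2, then 10 and 7 in mouse 1, 3 in mouse 4 and 1. In all, 5 of 16 Igha cells held 10 or more Ighg2b UMIs, against 0 of 104 Ighm cells, whose highest count was 7. In mouse 1, which had no Ighg2b cell, these 2 Igha cells held 17 of the 24 Ighg2b UMIs of the library. Ighg2b lies upstream of Igha in the locus. The count of such cells was noticed in the data and was not tested.

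The 4 Ighg2b cells held 1070, 1157, 1364 and 2775 Ighg2b UMIs, with 2651, 2022, 1991 and 4134 Igkc UMIs in the same order. Ighg2c, the C57BL/6 form of the IgG2a subclass, reached at most 4 UMIs in an Igkc-rich cell. Its highest count, 8, was in a mouse 2 cell outside them with 47 Igkc UMIs, in a cluster named PreGM-like for its markers of early granulocyte and monocyte progenitors. Ighg3 reached at most 3 UMIs in an Igkc-rich cell. Ighd was at 0 in all 124, and its 16 UMIs lay in 16 other cells. Of these, 7 lay in the cluster named for lymphoid-primed and multipotent progenitors (LMPP/MPP-like), against 1.83 by its share of all cells. The cluster named for granulocyte and monocyte progenitors held 5, against 1.72. PreGM-like and mitotic-like cells held 2 each, against 2.80 and 1.32. At 1 UMI per cell this was not tested.

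Jchain was present in each of the 124 cells and was highest in Igha cells. The 104 Ighm cells held 13 to 962 Jchain UMIs, with a median of 240.5. The 16 Igha cells held 355 to 1304, with a median of 677. The 4 Ighg2b cells held 31, 44, 103 and 104, with a median of 73.5. The Igha and Ighg2b cells did not overlap, while the Ighm cells spanned both, and 9 Ighm cells held under 50 Jchain UMIs.

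The order of Igha and Ighm cells was the same in each mouse that had both. The median in Igha cells against Ighm cells was 611 against 300.5 in mouse 1, 664 against 226 in mouse 2 and 806 against 377 in mouse 4, ratios of 2.03, 2.94 and 2.14. All 16 Igha cells stood above the median of the Ighm cells of their own mouse, and all 4 Ighg2b cells stood below it. Some Ighm cells nevertheless exceeded the lowest Igha cell of their mouse, namely 1 of 10 in mouse 1, 25 of 77 in mouse 2 and 4 of 16 in mouse 4. Per 1000 Igkc UMIs of the cell the medians were 62.1 in Ighm, 154 in Igha and 23.5 in Ighg2b cells, and per 10000 UMIs of the cell 286, 743 and 88.7. Cells of a mouse are not replicates and only 3 mice had both isotypes, so no test was made.

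**Figure D3:**
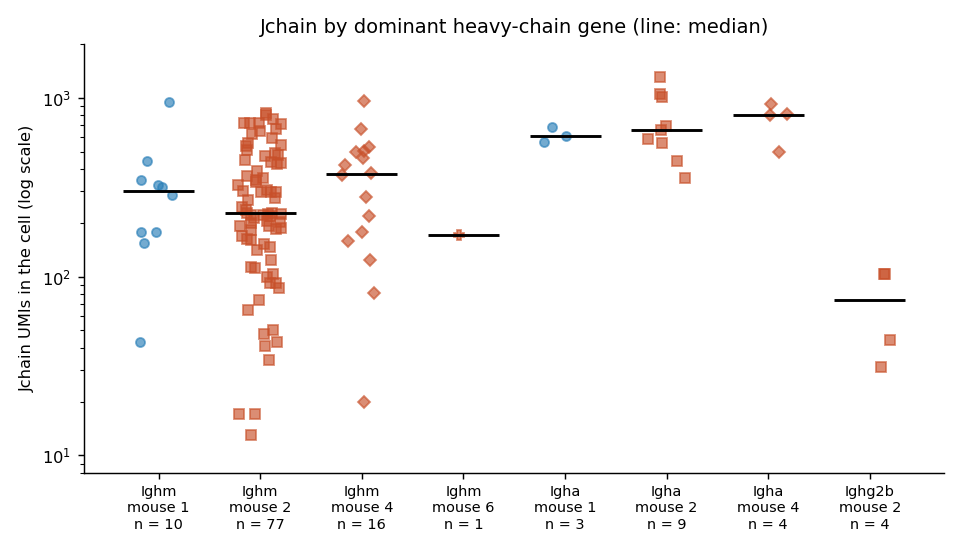
Jchain UMIs in each Igkc-rich cell on a log axis, by dominant heavy chain and mouse, young in blue and aged in orange, with a bar at each median. Igha cells sit between 355 and 1304, Ighg2b cells between 31 and 104, and Ighm cells span 13 to 962.

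Lambda transcripts, taken as the sum of Iglc1, Iglc2 and Iglc3, were far below Igkc in every Igkc-rich cell. They ran from 4 to 1123 UMIs per cell with a median of 39, or a median of 0.900% of the light-chain UMIs of the cell, and the highest share was 20.5%. None of the 124 cells had more lambda than Igkc, and choosing them by Igkc favoured this. Chosen instead by at least 1000 UMIs of Igkc and lambda together, 124 cells were found, and 0 of them had more lambda than Igkc. Only 1 cell of the whole table reached 1000 lambda UMIs. It was an Ighm cell of mouse 2 with 1068 Iglc1, 41 Iglc2 and 14 Iglc3 UMIs beside 4761 Igkc UMIs. The share of cells at 1000 lambda UMIs therefore differed between aged and young by 0.0197 percentage points, from this cell alone. With 1 mouse above 0 every split of the mice gives the same size of difference, so the test gives nothing here.

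Lowering the threshold added cells that all had abundant Igkc. At 300 lambda UMIs there were 7 cells, at 100 there were 15, at 50 there were 46 and at 30 there were 82, and each of these was an Igkc-rich cell. Of the 15 cells at 100 or more, 10 came from mouse 2 and 5 from mouse 4, and the most counted gene was Iglc1 in 9, Iglc2 in 5 and Iglc3 in 1. The top counts in mouse 2 were 1123, 793, 737, 578 and 561. The highest cell of mouse 4 held 308, of which 281 were Iglc3, beside 1567 Igha and 2338 Igkc UMIs. These 15 cells held 56.6% of the lambda UMIs of the 124 cells.

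The remaining 109 cells showed a different, more even mixture. Iglc2 was the most counted of the 3 in 84 of them, with a median of 2.86 Iglc2 UMIs per Iglc3 UMI. Over all 124 cells the medians were 6 UMIs of Iglc1, 19.5 of Iglc2 and 7.5 of Iglc3. Iglc1 counts were concentrated instead, since the 8 cells with at least 200 lambda UMIs held 76.3% of the Iglc1 UMIs of the 124 cells. Iglv1, a lambda variable gene, had a UMI in 98 of the 124 cells but at most 22, in a mouse 1 cell with 0 Iglc1, 18 Iglc2 and 6 Iglc3 UMIs. It reached at most 6 in a cell with 100 or more lambda UMIs. Which variable gene was joined to each constant gene was not read from these 3′ counts.

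**Figure D4:**
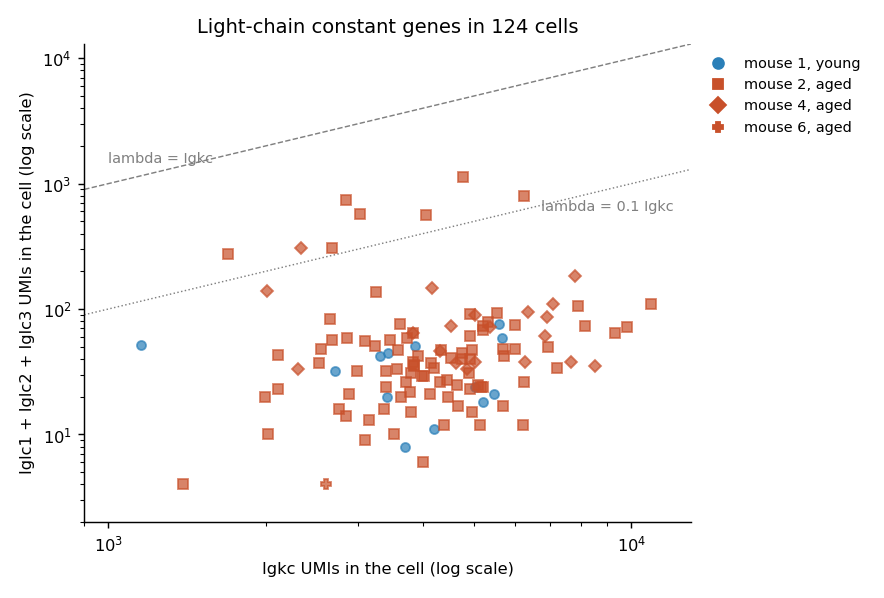
Lambda against Igkc UMIs in each Igkc-rich cell, on log axes, with 1 symbol per mouse, young in blue and aged in orange, a dashed line at equal counts and a dotted line at 0.1 of Igkc. All 124 cells, chosen by Igkc, lie on the Igkc side of the line, and the highest holds 1123 lambda UMIs.

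Antibody transcripts were also counted at a low level in other cells. Of the UMIs in the table, the Igkc-rich cells held 95.0% for Igkc, 94.5% for Jchain, 93.8% for Igha, 96.6% for Ighg2b, 91.6% for Iglc2 and 74.8% for Iglc1. Outside them an Igkc UMI was seen in 1207, 1598, 58, 1366, 129 and 250 cells of mice 1 to 6, or 73.3%, 100%, 3.78%, 71.9%, 13.5% and 36.8% of them. A Jchain UMI was seen in 217, 1093, 20, 167, 62 and 19 cells. An Igha UMI was seen in 190, 782, 11, 242, 46 and 3 cells. The mouse with the most Igkc-rich cells had the most such cells for each of the 3 genes.

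The ratio of Jchain to Igkc was close inside and outside the Igkc-rich cells of a mouse, although it differed beyond counting error in mice 2 and 4. It was 96.4 and 96.1 UMIs per 1000 Igkc UMIs inside and outside in mouse 1, 77.0 and 89.95 in mouse 2, 84.0 and 62.9 in mouse 4, and 65.6 and 62.5 in mouse 6. Igha gave 101 and 85.3 in mouse 1, 40.8 and 55.2 in mouse 2, 53.9 and 89.2 in mouse 4, and 0 and 9.87 in mouse 6, whose only Igkc-rich cell was an Ighm cell. Mice 3 and 5, with no Igkc-rich cell, had 350 and 456 Jchain UMIs per 1000 Igkc UMIs, from totals of 60 and 149 Igkc UMIs.

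**Figure D5:**
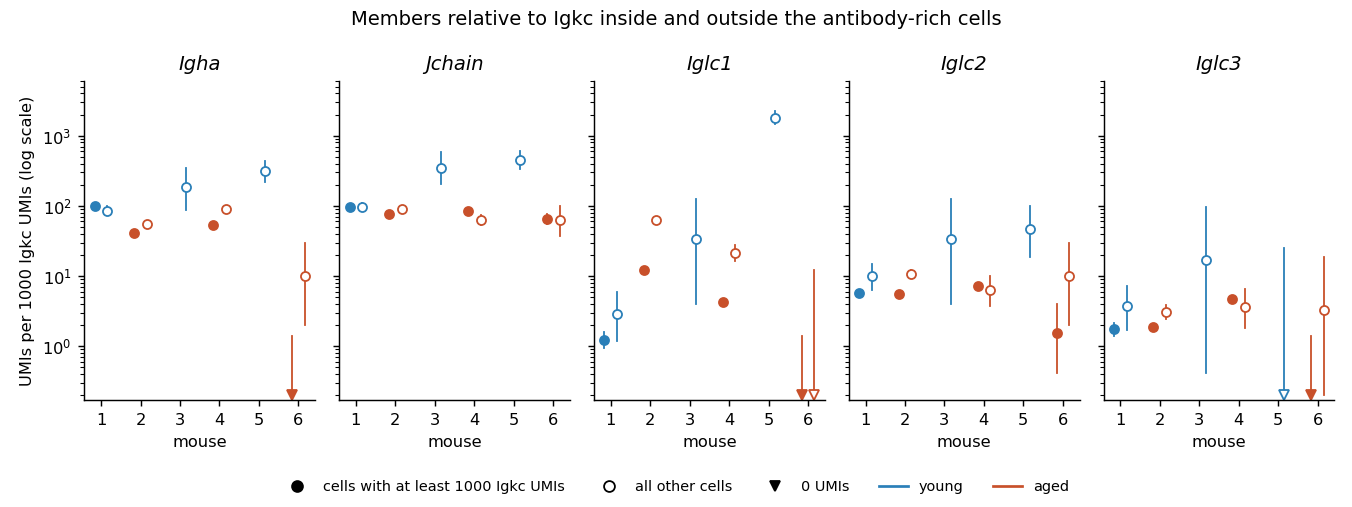
UMIs of each gene per 1000 Igkc UMIs inside (filled) and outside (open) the Igkc-rich cells, by mouse, on a log axis, young in blue and aged in orange, with 95% counting intervals and triangles at 0. Jchain keeps nearly the same ratio inside and outside in mouse 1 (96.4 and 96.1), while Iglc1 in mouse 2 is 12.2 inside and 62.7 outside.

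In the 3 mice with the most Igkc UMIs these low levels varied by 1.25 to 2.30 times for Igkc, Jchain and Igha between cell classes. Across classes with at least 50 cells, the highest over the lowest CPM outside the Igkc-rich cells was 1.45 for Jchain in mouse 1, 2.02 in mouse 2 and 1.75 in mouse 4, and 1.57, 1.95 and 2.30 for Igha. Igkc gave 1.25, 1.91 and 1.35. The cluster named for haematopoietic stem cells (HSC-like) was highest for Igkc and Jchain in mouse 2, at 3171 and 311 CPM. It was also highest for Igkc and Igha in mouse 4, at 204 and 20.9 CPM. HSC-like cells had a median of 3640 UMIs over all mice, against 6313.5 over all cells outside the Igkc-rich set. At an equal antibody count per cell, lower depth gives a higher CPM, and the part of depth in these rankings was not tested. The highest class was macrophage/dendritic cell-like for Igha in mouse 2 and erythroid-like for Jchain in mouse 4. In mouse 1, with 13 HSC-like cells and so no value for them, it was LMPP/MPP-like for Igkc and Jchain and erythroid-like for Igha. In the mice with fewer UMIs the Jchain ratio was 2.18 in mouse 3, 3.80 in mouse 5 and 10.9 in mouse 6. Ighm, which early progenitors transcribe, gave 7.07 in mouse 1, 2.59 in mouse 2 and 8.16 in mouse 4, with its highest class LMPP/MPP-like in mouse 1, macrophage/dendritic cell-like in mouse 2 and GMP/monocyte progenitor-like in mouse 4. Free RNA was not measured, and no share of cells with a UMI outside the Igkc-rich cells is read here as expression.

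Iglc1 departed further from the Igkc ratio in mice 2 and 4. In mouse 2 it was 12.2 UMIs per 1000 Igkc UMIs inside and 62.7 outside, and in mouse 4 it was 4.25 and 21.6. In mouse 1 it was 1.23 and 2.91, with overlapping counting intervals and 7 UMIs outside. Iglc2 also departed in mouse 2, at 5.62 inside and 10.7 outside, and Ighg2b in mouse 1, at 0.323 and 2.91. Mouse 5, with no Igkc-rich cell, had 269 Iglc1 UMIs against 149 Igkc UMIs, and its Iglc1 lay in 222 cells. No cell outside the Igkc-rich set held more than 10 lambda UMIs. In mouse 5 lambda was 64.9% of light-chain UMIs outside the Igkc-rich set, against 1.30% to 7.69% in the other mice. Its Iglc1 was spread over the cell classes, from 24.4 CPM in mitotic-like to 46.4 CPM in LMPP/MPP-like cells. In mouse 2 the range was 77.7 CPM in erythroid-like to 292 CPM in HSC-like cells, again with the part of depth not tested. Of 227 cells in the table with more lambda than Igkc UMIs, 196 were from mouse 5, and none had more than 4 lambda UMIs. When each cell was thinned to 1000 UMIs, 13.2% of cells in mouse 2 and 4.81% in mouse 5 had an Iglc1 UMI.

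Without the Igkc-rich cells, 4 of the 9 genes passed the filter and 0 of the 4 were called between ages by edgeR. The background there was 0 of 12238 genes (0%), or 9 with DESeq2 (0.0735%), and before adjustment 330 genes had p under 0.05. The log2 differences were 2.60 for Jchain (SE 1.22), 2.30 for Igha (SE 1.21), 1.86 for Iglc1 (SE 1.75) and 2.77 for Iglc2 (SE 1.22), each with an adjusted p of 1.00 in edgeR. Without mouse 2 the values of Jchain and Iglc1 changed sign, to -0.31 and -2.20, and that of Igha was 0.16. Of the plasma cell list 11 genes were tested there, with 0 called, 5 positive and a median of -0.056.

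The genes most like Jchain across the 8436 cells, by Pearson correlation of log UMIs per 10000, were Igkc (0.76), Iglc2 (0.73), Mzb1 (0.73), Iglc3 (0.71) and Cd79a (0.68). Cd79a encodes a signalling chain of the B-cell receptor. For Igha the same rule gave Igkc (0.46), Jchain (0.44), Cd79a (0.40), Iglc1 (0.34) and Mzb1 (0.32). For the lambda sum it gave Jchain (0.72), Igkc (0.70), Mzb1 (0.64), Ighm (0.61) and Cd79a (0.58). Cells of a mouse share a library, its free RNA and its depth, so these are descriptions of 8436 cells and not of 6 mice.

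In the long reads Jchain and Igha were again the most counted members. The runs held 274522 to 358453 reads on genes with Sequel and 962174 to 1833762 with Sequel II. Over all 12 runs there were 7432 Jchain reads, 1473 Igha, 286 Iglc2, 73 Ighd, 40 Iglc1, 10 Ighg2c, 2 Iglc3, 1 Ighg2b and 1 Ighg3, with 0 for Ighg1 and 0 for Igkc. In the Sequel runs, which resembled their own mouse, Jchain had 129, 19 and 39 reads in young mice 1, 3 and 5 and 1123, 113 and 41 in aged mice 2, 4 and 6. Igha had 16, 3 and 13 reads against 182, 41 and 0. Mouse 2 was again highest and the age groups overlapped for both genes.

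The Sequel II runs followed another order in mice 3 to 6. Jchain had 528, 95 and 458 reads in those labelled young mice 1, 3 and 5 and 4691, 131 and 65 in those labelled aged mice 2, 4 and 6. Across genes, the run labelled mouse 3 was most like the short reads of mouse 6, that labelled 4 like mouse 5, that labelled 5 like mouse 4 and that labelled 6 like mouse 3, so each lay nearest to a mouse of the other age. Differences that rest on the runs labelled 3 to 6 are therefore given by their labels only. On the sums of both runs, edgeR tested 3 members and called 0, against 0 of 9242 genes (0%). DESeq2 also called 0, and before adjustment 154 genes had p under 0.05 in edgeR. The log2 differences were 2.12 for Jchain (SE 1.05), 1.77 for Igha (SE 1.08) and 1.98 for Iglc2 (SE 1.06), with an adjusted p of 1.00 each in edgeR. With the Sequel runs alone they were 2.74 for Jchain (SE 0.92) and 2.84 for Igha (SE 0.96), with an adjusted p of 0.998 each in edgeR. On the sums, the values of all 3 were negative without mouse 2, at -0.88, -0.76 and -1.65.

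Several long-read counts went against the short reads. Igkc, the most abundant antibody gene of the short reads, had 0 long reads, and Ighg2b, with 6755 UMIs in the short reads, had 1. Ighg2c, seen in mouse 2 alone in the short reads, had 3 long reads in mouse 1 and 7 in mouse 2. Gm30211, for which the long-read annotation added 8 transcripts that overlap Igkc on the same strand, had 5267 reads in the Sequel run of mouse 2 and 495 in that of mouse 1. Ighd had 72 reads in mouse 2, 10 with Sequel and 62 with Sequel II, and 1 in mouse 4. The annotation had added 2 transcripts to Ighd with 15 exons, of which 0 overlap its reference exons and 8 overlap Ighg2b. Reads counted for Ighd therefore cannot be taken as IgD transcripts, and how many of them came from those exons was not tested.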

How the data were processed

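Lin- cKit+ cells of 6 mice were read as droplet 3′ short reads and PacBio long reads. The authors made the short-read counts (UMIs per gene and cell) with Cell Ranger 3.0.2 on mm10, and merged the libraries in Seurat 3, leaving out cells with under 1000 genes or over 5% mitochondrial counts, so cells with few genes are not in the deposited table. They made the long-read counts per gene with HTSeq on minimap2 alignments to GRCm38.p6, with an annotation extended from their reads, and 47.4% to 52.4% of a run's reads fell in categories that name no gene and were left out. The 2 runs of a mouse were summed. Library suffixes 1 to 6 in the cell names were taken as mice 1 to 6.

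UMIs were summed per mouse and tested with edgeR 4.0.16 in R 4.3.3 (filterByExpr, TMM normalisation, quasi-likelihood F test, Benjamini-Hochberg adjustment at 0.05), with DESeq2 1.42.0 as an alternative. SEs were derived from the test statistic. Shares were compared by two-sided exact permutation over mice. Cells were clustered with Seurat 5.3.0 without mitochondrial, ribosomal and named antibody genes, while Gm30211 was not left out. A cluster was named for the class with the most markers, at least 3, among its 30 leading genes. Scrublet in scanpy 1.11.5 called 33 doublets (0.391%), too few to rely on, so none were removed and cells of the highest scores were left out as an alternative. Mice are separate animals. The fits were tested on simulated counts with the same low spread between mice set for every gene. The antibody genes varied far more between mice, so that test does not show the power of the fits for them.

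The genes and lists were chosen with earlier results of these data known. Genes named were the 10 antibody genes, Igkc, Ighm, lambda variable genes, the most abundant list genes and the 5 most correlated genes. Cd22, Cr2, other markers of the Igkc-rich cells and Gm30211 were added after their values were seen. Alternatives changed the thresholds, filter, tool, mice, instrument and doublets.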

Additional observations from a re-analysis of the deposited data

How the results depend on the processing

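No paired analysis was possible because the young and aged mice share no mouse number. Age calls stayed few in the short reads. Over all cells edgeR called 0 genes, DESeq2 12, a term for mice 1 and 2 gave 4, leaving out both gave 1, and leaving out each mouse 0 to 1. Outside the Igkc-rich cells edgeR called 0, DESeq2 9, no filter on low counts 1, the term 5, leaving out mice 1 and 2 gave 1, and leaving out each mouse 0 to 1. With the term, Igkc there was called (log2 difference 3.24, adjusted p = 0.0314). In long reads 60 of 17215 genes were called with no filter, against 0 of 9242 with it. Of the 60, 47 were higher and 13 lower in aged mice, and Jchain, Igha, Iglc2, Ighm and Ighd were among them. The Jchain difference hardly moved, at 2.13 against 2.12 with the filter, while its SE was 0.19 against 1.05. These sums hold the Sequel II runs that lay nearest to mice of the other age. The cause of these calls was not tested.

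Of 207 alternatives for single genes, 13 changed sign, each of them without mouse 2. Over all cells these were Iglv1 at -1.15 without mouse 2 (-1.15 to 6.47 with each mouse left out) and Iglc1 at -0.057 without mice 1 and 2. Outside the Igkc-rich cells they were Iglc1 at -2.20 (to 6.52), Jchain at -0.31 (to 3.44) and Ighm at -0.21 (to 1.73) without mouse 2, with the highest value over the mice left out in turn in brackets, and Iglc1 at -2.74 without mice 1 and 2. In long reads without mouse 2 they were Igha at -0.76 (to 2.44), Iglc2 at -1.65 (to 2.54), Jchain at -0.88 (to 2.67) and Ighm at -1.62 (to 2.49). In long reads without mice 1 and 2 they were Igha at -0.65, Jchain at -0.63 and Ighm at -1.29. The long-read sums hold the Sequel II runs labelled mice 3 to 6, which lay nearest to mice of the other age. Their changes of sign therefore cannot be read as dependence on mouse 2 alone.

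The 16 Igha cells became 72 when Ighm was left out of the choice of dominant gene, and 7 to 16 with each mouse left out, 7 of them without mouse 2. Leaving out the cells outside the plasma cell-like cluster, an alternative chosen after seeing the data, gave 15. The difference in the share of Igkc-rich cells ran from 0.333 to 2.93 percentage points with each mouse left out, and that of cells at 1000 lambda UMIs from 0 to 0.0296. Mice 1, 2 and 4 had 13, 90 and 20 Igkc-rich cells. An isotype with 0 cells could still be as much as 24.7% of them in mouse 1 and 16.8% in mouse 4 (exact 95% bounds). These bounds take cells as independent draws and cover counting error only.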
